A study of Mus musculus with 12 samples.

Results

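The genes described here are 35 genes of DNA repair, listed by name, out of 35275 genes in the expression table. The list was made with earlier results of these data known. All 35 were matched by their Ensembl identifiers. By role they comprised 8 genes of end joining, 10 of homologous recombination, 3 of the complex that senses broken ends, 4 of the damage kinases, 5 of the Fanconi anaemia pathway and 5 of mismatch and excision repair. They were followed in RNA from hematopoietic stem cells, the cells that give rise to all blood lineages, which had been sorted by flow cytometry from C57BL/6 mice. There were 4 groups of 3 libraries: wild type (Thpo+/+) and knockout (Thpo-/-), each untreated and each with Romiplostim. Thpo encodes thrombopoietin, the cytokine that maintains stem cells and megakaryocytes, and Romiplostim is an agonist that mimics it. The intravenous dose was 100 µg/kg, repeated daily over 10 days, and the protocol names PBS for controls whose label reads untreated. The gate of the sort, the age and the sex of the mice are not given in the sources used here. The labels do not say that replicates are separate animals, so the p-values measure the spread between these libraries only.

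A cell repairs a double-strand break by joining the ends directly or by copying an intact sister chromatid. End joining works throughout the cell cycle and is the route on which resting stem cells mainly depend. Homologous recombination needs the sister copy that exists after replication, and its genes are transcribed most in cycling cells. The Fanconi anaemia pathway removes crosslinks between the strands when a replication fork meets them, and its inherited loss causes bone marrow failure. Excision and mismatch repair replace damaged or mispaired bases without a break of both strands.

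Levels are FPKM, fragments per kilobase of exon and per 1 M mapped fragments, so that they can be compared between genes. Depth recovered from the values was 27.6 to 35.5 M fragments per library (median 30.2), and 11262 to 12374 genes reached an FPKM of 1. Thpo itself was listed at 0 in 10 libraries and at no more than 0.0426 FPKM in any, with wild-type stem cells also near 0, so it does not check the genotype labels. The cell type label did not hold equally in the 4 groups. The 18 stem cell markers, Procr and Slamf1 among them, summed to between 6734 and 7522 FPKM in untreated wild type, 908 to 1148 in untreated knockout, 6242 to 8880 in treated wild type and 3356 to 5801 in treated knockout. Ifitm1 carried much of this sum, and the other 17 summed to between 2319 and 2937, 698 and 954, 2068 and 2442, and 1216 and 2165 FPKM in the same order. The 72 markers of B, myeloid, macrophage, erythroid, T and NK, and stromal and endothelial cells summed to between 2833 and 5021, 17708 and 48258, 2594 and 6886, and 5808 and 10742 FPKM. Without S100a8 and S100a9, the most abundant in untreated knockout replicate 3, the ranges were 2525 to 2891, 12253 to 21212, 1857 to 2741 and 4145 to 8504 FPKM. Among these markers, Klrd1 in untreated wild type and Pax5 in treated wild type were listed at 0 in all 3 libraries, and every other one had an FPKM above 0 in at least 1 library of each group. The part of other cells in the results below was not tested. In such bulk RNA, more cells of a type and more RNA per cell cannot be told apart, and neither can group and sequencing run, since each group was sequenced on a run of its own.

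Expression of the 35 genes in untreated wild type ran from 0.637 ± 0.108 FPKM for Lig4 (mean ± SD, n = 3 in every group) and 0.738 ± 0.297 for Bard1 to 57.4 ± 6.15 for Ercc1 and 155 ± 19.4 for Xrcc6. Xrcc6 encodes one subunit of the Ku ring that caps broken ends, and Ercc1 a subunit of a nuclease of excision repair. All 35 were above the level of 3 fragments in every library and entered the test, for which an FPKM of at least 1 was needed in at least 3 libraries. Lig4 and Bard1 met this condition only with the untreated knockout, where all 3 libraries exceeded 1, since 1 other library of Lig4 and 2 of Bard1 did. A rise in the untreated knockout was thus favoured by the filter for these 2 genes. The median coefficient of variation within a group was between 10.6% and 15.5% for these genes and between 10.3% and 21.1% for all 12823 genes tested.

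**Figure D1:**
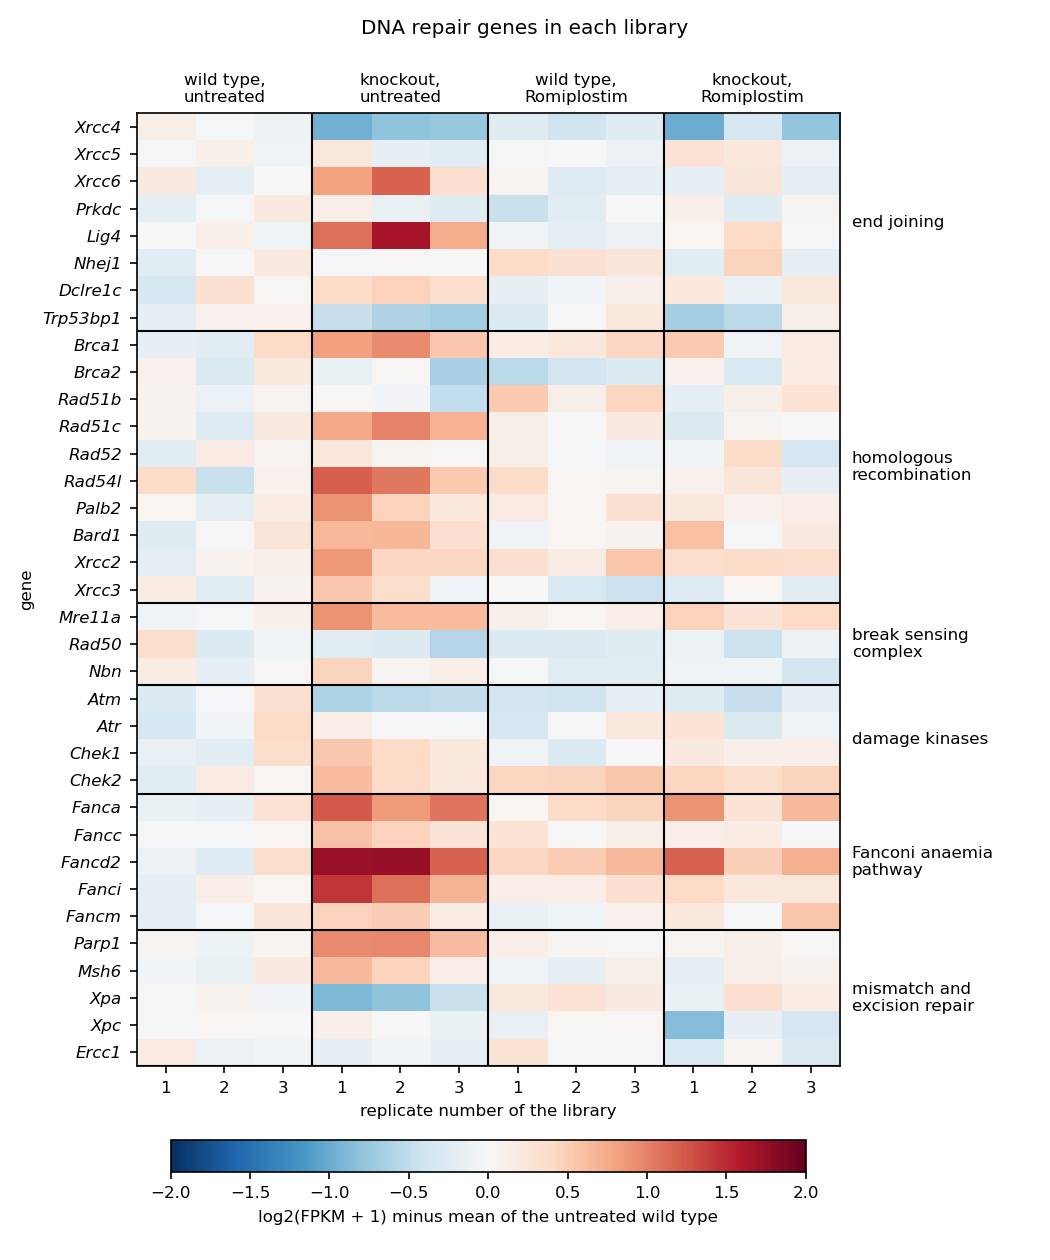
Level of each of the 35 repair genes (rows, by pathway) in each of the 12 libraries (columns, by group), as log2(FPKM + 1) minus the mean of the untreated wild type. The untreated knockout columns hold the deepest reds, for Fancd2, Fanci, Lig4 and Fanca, and the rows that are blue in all 3 of them include Xrcc4, Trp53bp1, Atm and Xpa.

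The first comparison was of the knockout with wild type, both untreated. These groups differed in the Thpo genotype and also in the marker sums given above. Repair genes rose more often than they fell: 16 were higher in the knockout, 4 were lower and 15 did not pass (limma on log2(FPKM + 1), Benjamini-Hochberg adjusted p under 0.05 over all genes tested). Of the 16, 14 were among the 33 genes that passed the filter without help from the untreated knockout. By log2 fold change the 5 largest rises were those of the crosslink repair genes Fancd2, Fanci and Fanca, the end-joining ligase gene Lig4 and the recombination motor gene Rad54l. The falls were Xrcc4, Xpa, Trp53bp1 and Atm. Much of the transcriptome moved in this contrast, with 45.1% of the 12823 genes called (22.1% higher and 23% lower), against 57.1% of the repair genes (45.7% higher and 11.4% lower). The median log2 fold change was 0.38 over the repair genes and −0.03 over all genes. The 2 groups of libraries did not overlap for 20 repair genes, 16 higher and 4 lower, while 56.3% of all genes did not overlap (27.2% higher and 29% lower). At a change of at least 2-fold on the log2(FPKM + 1) scale, which understates the change of low genes, the count fell from 20 to 4 (from 5779 to 2252 for all genes), namely Fancd2, Fanci, Fanca and Lig4. Of these, Lig4 met the filter only with the untreated knockout.

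The Fanconi anaemia genes moved together: 4 of 5 were higher, and the median log2 fold change was 1.05. Fancd2 (ENSMUSG00000034023, chromosome 6, 113531682 to 113597017, mm10) encodes the protein that is ubiquitinated at a stalled fork and recruits the nucleases. Its FPKM was 4.24, 3.74 and 6.24 in the wild-type libraries and 17.7, 17.8 and 11.8 in the knockout libraries, a log2 fold change of 1.55 ± 0.22 (SE, adjusted p = 0.000226). The lowest knockout library lay above the highest wild-type library. Fanci (ENSMUSG00000039187, chromosome 7, 79391929 to 79450264), whose protein clamps onto DNA as the partner of Fancd2, had 2.2, 3 and 2.74 FPKM in wild type and 8.76, 6.82 and 4.79 in the knockout (1.07 ± 0.18, adjusted p = 0.000738). Fanca (ENSMUSG00000032815, chromosome 8, 123268300 to 123318576), a subunit of the ubiquitin ligase that modifies the pair, had 5.1, 5 and 7.19 FPKM in wild type and 14.7, 11.1 and 13.1 in the knockout (1.05 ± 0.20, adjusted p = 0.0012). Neither gene's groups overlapped. Fancc, another subunit of that ligase, rose less, from 11.2 ± 0.313 to 15.5 ± 1.87 FPKM (0.44 ± 0.12, adjusted p = 0.0126), and without knockout replicate 1 its adjusted p was 0.0525. Fancm, the translocase that anchors the ligase to DNA, was at 1.47 ± 0.388 and 2.18 ± 0.416 FPKM and did not pass (0.37 ± 0.18, adjusted p = 0.122). Without strand, reads from overlapping genes cannot be told apart: 16% of the exon bases of Fanci are shared with Polg on the opposite strand, which itself rose (1.03), and 10.5% of those of Fanca with Zfp276 (0.41). The shared bases make up 3.24% of Fancd2, and the gene opposite it, Fancd2os, had at most 0.0575 FPKM.

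**Figure D2:**
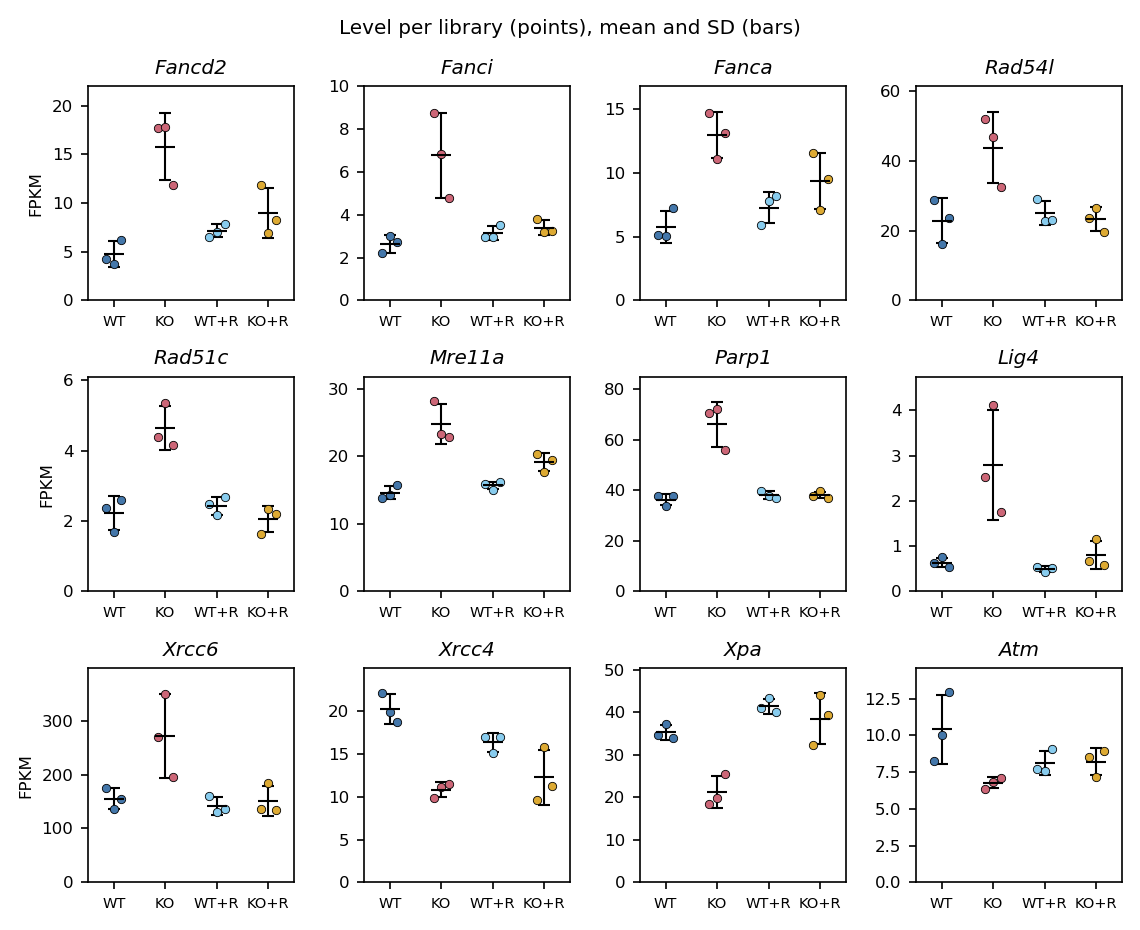
FPKM of 12 repair genes in each library (points) for untreated wild type (WT), untreated knockout (KO), wild type with Romiplostim (WT+R) and knockout with Romiplostim (KO+R), with the mean and SD as bars (n = 3). In the 9 panels from Fancd2 to Xrcc6 every untreated knockout library lies above every untreated wild-type library, and in the panels of Xrcc4, Xpa and Atm every one lies below.

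In homologous recombination 6 of 10 genes were higher in the knockout, none was lower and the median log2 fold change was 0.53. Rad51c (ENSMUSG00000007646, chromosome 11, 87376645 to 87404954), a paralog that helps load the strand exchange filament, had 2.37, 1.69 and 2.61 FPKM in wild type and 4.39, 5.35 and 4.17 in the knockout (0.81 ± 0.16, adjusted p = 0.00171). All knockout libraries were above all wild-type libraries. Rad54l, the motor protein that works with the filament on chromatin, rose from 22.8 ± 6.4 to 43.8 ± 10.2 FPKM (0.92 ± 0.22, adjusted p = 0.00569), and shares 15.4% of its exon bases with Lrrc41, which was not called (−0.03). Brca1, the scaffold that starts resection and recruits the other factors, rose from 7.42 ± 2.05 to 13.1 ± 2 (0.76 ± 0.20, adjusted p = 0.00893). Xrcc2, a further paralog, rose by 0.56 (7.97 ± 0.915 to 12.4 ± 2.52 FPKM), Palb2, the bridge between Brca1 and Brca2, by 0.52 (4.21 ± 0.585 to 6.6 ± 1.85) and Bard1, the partner of Brca1, by 0.54 (0.738 ± 0.297 to 1.52 ± 0.322). These 3 calls depended on single libraries: without knockout replicate 1 the adjusted p was 0.0543 for Xrcc2, 0.115 for Palb2 and 0.104 for Bard1. Without knockout replicate 2 it was 0.0513 for Palb2 and 0.109 for Bard1. Without wild-type replicate 2 it was 0.103 and 0.079, and without wild-type replicate 1 it was 0.117 for Bard1. Without the filter on low values it was 0.0587 for Bard1 and 0.051 for Palb2, and Bard1 met that filter only with the untreated knockout.

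The other 4 genes of the pathway did not pass. Brca2, which loads the filament onto single strands, was at 4 ± 0.859 FPKM in wild type and 3.23 ± 0.965 in the knockout (−0.25 ± 0.20, adjusted p = 0.338). Rad52, an annealing protein, was at 25.9 ± 3.52 and 27.7 ± 2.08 (0.10 ± 0.17). Rad51b, at 7.71 ± 0.615 and 6.83 ± 1.43, and Xrcc3, at 27.5 ± 3.53 and 33.8 ± 7.35, are paralogs that also did not pass (adjusted p = 0.459 and 0.233). Between 2 paralogs that share a complex, Xrcc3 and Rad51c, the FPKM ratio was 12.6 ± 1.5 in wild type and 7.32 ± 1.61 in the knockout. The lowest wild-type ratio (11) was above the highest knockout ratio (9.16). Not all partner ratios parted: those of Brca1 to Bard1 (10.7 ± 3.03 and 8.71 ± 0.74) and Fancd2 to Fanci (1.82 ± 0.524 and 2.37 ± 0.305) overlapped between these groups. That of Chek1 to Atr (3.55 ± 0.594 and 4.52 ± 0.279) overlapped as well. Ratios over other gene pairs were not computed, so no background share can be given.

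In end joining 2 of 8 genes were higher (25%), 2 were lower (25%) and 4 did not pass, shares near the 22.1% and 23% of all genes, and the median log2 fold change was −0.03 in both. Lig4 (ENSMUSG00000049717, chromosome 8, 9969049 to 9977686), the ligase that seals the ends, had 0.625, 0.751 and 0.536 FPKM in wild type and 2.52, 4.12 and 1.75 in the knockout (1.17 ± 0.21, adjusted p = 0.000972). It met the filter only with the untreated knockout, which favoured a rise. Xrcc4 (ENSMUSG00000021615, chromosome 13, 89774027 to 90089608), the scaffold that binds and stabilises the ligase, moved the other way, from 22.1, 19.9 and 18.7 to 9.82, 11.1 and 11.5 FPKM (−0.84 ± 0.16, adjusted p = 0.00138). It was chosen for printing by library after its values were seen, as the partner of Lig4. For both genes the 2 groups were apart, and their FPKM ratio was 32.2 ± 5.02 in wild type and 4.4 ± 1.99 in the knockout. The Ku genes also parted: Xrcc6 (ENSMUSG00000022471, chromosome 15, 81987835 to 82040085) had 175, 137 and 154 FPKM in wild type and 270, 350 and 195 in the knockout (0.77 ± 0.20, adjusted p = 0.00933), while Xrcc5, the other subunit of the ring, was at 24.5 ± 1.68 and 23.8 ± 4.45 (−0.05 ± 0.15). Xrcc6 shares 7.69% of its exon bases with Desi1 on the opposite strand, which rose by 1.02.

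Trp53bp1, which steers a break towards end joining by shielding it from resection, fell from 14.4 ± 1.53 to 9.23 ± 0.828 FPKM (−0.59 ± 0.20, adjusted p = 0.0317). Its adjusted p was 0.0905 and 0.0897 without wild-type replicates 2 and 3, and 0.0744 and 0.0866 without knockout replicates 2 and 3, and it shares 15% of its exon bases with Tubgcp4, which rose by 0.44. Dclre1c, the nuclease that opens hairpin ends, was higher in all 3 knockout libraries (8.09, 8.64 and 7.98 FPKM against 4.6, 7.64 and 6.16) without passing (0.39 ± 0.17, adjusted p = 0.0769). Prkdc, the kinase that Ku recruits, was at 3.41 ± 0.581 and 3.16 ± 0.575 FPKM, and Nhej1, which aligns the ends, at 19.1 ± 2.79 and 18.9 ± 0.377. Neither passed (adjusted p = 0.718 and 0.983).

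**Figure D3:**
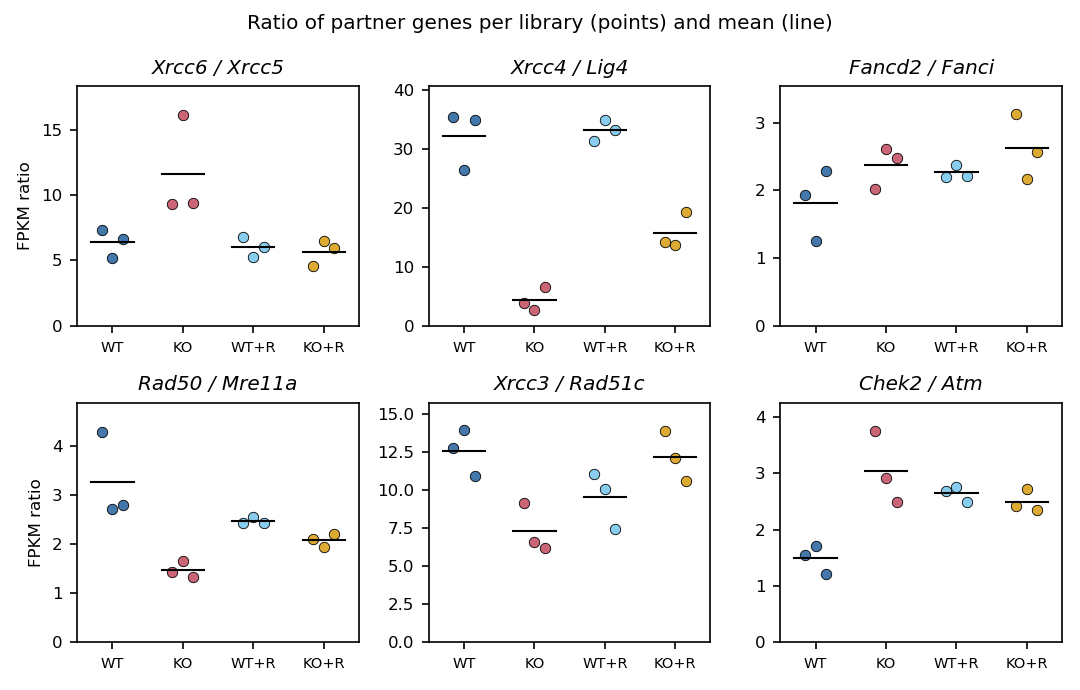
FPKM ratio of 6 pairs of partner genes in each library (points), with the group mean as a line, for the groups WT, KO, WT+R and KO+R. The ratio of Xrcc4 to Lig4 is lowest in the untreated knockout (mean 4.4) and intermediate in the treated knockout (15.7), and that of Rad50 to Mre11a is lowest in the untreated knockout (1.47).

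The complex that senses broken ends is built of Mre11a, Rad50 and Nbn, and 1 of these 3 genes changed. Mre11a (ENSMUSG00000031928, chromosome 9, 14784654 to 14837123), its nuclease, had 13.9, 14.3 and 15.8 FPKM in wild type and 28.1, 23.3 and 22.9 in the knockout (0.72 ± 0.12, adjusted p = 0.00049), with no overlap. Rad50, the arm that tethers the ends, was at 47.5 ± 10.9 and 36.5 ± 5.11 FPKM (−0.36 ± 0.17, adjusted p = 0.0963), and Nbn, the adaptor to the Atm kinase, at 32.8 ± 3.72 and 38.2 ± 5.78 (0.21 ± 0.14, adjusted p = 0.239). The FPKM ratio of Rad50 to Mre11a was 3.27 ± 0.893 in wild type and 1.47 ± 0.164 in the knockout, without overlap.

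Among the damage kinases, Atm, which answers to double-strand breaks, fell from 10.4 ± 2.35 to 6.78 ± 0.368 FPKM (−0.53 ± 0.16, adjusted p = 0.0158). Chek2, the kinase downstream of Atm, rose from 15.2 ± 2.16 to 20.5 ± 3.12 (0.40 ± 0.14, adjusted p = 0.0291). Both calls depended on single libraries. Without wild-type replicate 3 the adjusted p was 0.0727 for Atm and 0.0569 for Chek2, and without knockout replicate 1 it was 0.0509 and 0.12. For Chek2 it was also 0.0984 without wild-type replicate 1 and 0.0622 without knockout replicate 2. Atr, which answers to single-stranded DNA at forks, was at 6.19 ± 1.93 and 6.17 ± 0.495 FPKM (0.03 ± 0.21). Its effector gene Chek1 was at 21.5 ± 5.12 and 27.9 ± 3.37 and did not pass (0.38 ± 0.16, adjusted p = 0.0661).

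In mismatch and excision repair the genes went different ways. Parp1 (ENSMUSG00000026496, chromosome 1, 180568924 to 180601254), which detects nicks and builds ADP-ribose chains on them, had the smallest p of all 35 genes. Its FPKM was 37.8, 33.6 and 37.6 in wild type and 70.5, 71.9 and 55.9 in the knockout (0.84 ± 0.12, adjusted p = 0.000177), and the groups were far apart. Xpa (ENSMUSG00000028329, chromosome 4, 46155347 to 46196311), the protein that verifies the lesion in nucleotide excision repair, went down from 34.7, 37.2 and 33.9 to 18.5, 19.8 and 25.5 FPKM (−0.72 ± 0.14, adjusted p = 0.00177). Msh6, which recognises base mismatches, rose from 20.6 ± 2.7 to 27.9 ± 5.04 (0.42 ± 0.16, adjusted p = 0.0462) with overlapping groups. That adjusted p was between 0.0988 and 0.174 when wild-type replicate 1 or 2 or knockout replicate 1 or 2 was left out. Xpc, the damage sensor before Xpa, was at 14.3 ± 0.342 and 14.2 ± 1.2 FPKM, and Ercc1 at 57.4 ± 6.15 and 52.5 ± 2.41, and neither passed.

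The knockout libraries did not take part equally. Of the 16 genes that rose, knockout replicate 3 had the lowest knockout level in 14 (87.5%) and replicate 2 in 2, against 52.4% for replicate 3 among all 2828 genes that rose. The mean log2(FPKM + 1) of the 35 genes was 3.58, 3.56 and 3.74 in the wild-type libraries and 4.05, 3.98 and 3.75 in the knockout libraries, so replicate 3 reached about the highest wild-type level. The Fanconi genes had 2.27, 2.33 and 2.59 against 3.49, 3.33 and 3.07, with no overlap, whereas end joining had 3.71, 3.83 and 3.81 against 3.93, 3.98 and 3.72. Without knockout replicate 1 the count of changed repair genes was 13 (4860 of all genes), and without replicate 3 it was again 20 (5203). Under quantile normalization Bard1, Palb2, Chek2 and Msh6 no longer passed (adjusted p = 0.135, 0.0636, 0.0809 and 0.0816).

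Other genes of the same pathways, taken from a list of 139 matched names of which 136 were tested, gave 36 higher and 14 lower (median 0.13 on the log2 scale). The 36.8% called were below the 45.1% of all genes. By direction, 26.5% were higher and 10.3% lower, where 22.1% of all genes were higher and 23% lower. In homologous recombination 12 of 30 were higher (40%) and 3 lower. The smallest p in limma belonged to the genes of 2 junction-cutting nucleases, Gen1 (1.30 ± 0.18, adjusted p = 0.000208) and Eme1 (1.20 ± 0.18). In end joining 6 of 14 were higher (42.9%) and 3 lower, with the gap-filling polymerase gene Polm at 1.06 ± 0.20 and Aplf, which docks onto Ku, at 0.96 ± 0.19. In damage signalling 5 of 21 were higher (23.8%) and 1 lower, with the clamp loader Rad17 and the clamp subunit Rad9a both at 0.71. In the Fanconi pathway 4 of 15 were higher (26.7%) and 2 lower. Its Faap20, an adaptor of the core ligase, went from 184 ± 30.0 to 93.4 ± 5.97 FPKM (−0.96 ± 0.15) and Fancb, a core subunit, rose by 0.87. Excision of single bases had 5 of 19 higher (26.3%) and 2 lower, with the thymine glycosylase gene Tdg at 1.18 ± 0.17 and the glycosylase gene Nthl1 at −0.99 ± 0.16. The shares higher in damage signalling, the Fanconi pathway and base excision were near the 22.1% of all genes. Nucleotide excision had 3 of 18 higher (16.7%) and 1 lower, with Gtf2h1 at 0.75 and Ercc3 at 0.50. Mismatch repair had 1 of 7 higher (14.3%), and both shares were below that of all genes. Direct reversal and bypass had none of 12 higher and 2 lower (limma; 5 at an unadjusted p under 0.05): Mgmt, which removes alkyl groups from guanine, fell by 1.50 ± 0.13, from 60.8 ± 6.95 to 20.8 ± 2.24 FPKM (adjusted p = 9.94e-06), and Alkbh2 by 0.53.

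Genes of the cell cycle moved in the same contrast. Of 25 S phase genes 15 were higher and none lower, with a median of 0.67, among them Mcm2 (0.78) and Mcm4 (0.81) of the replicative helicase. Of 20 mitosis genes 19 were higher and none lower, with a median of 1.39, and the proliferation marker Mki67 rose by 1.04. Of 16 targets of p53, which arrests damaged cells, 4 were higher (25%) and none lower, where 22.1% of all genes were higher and 23% lower. Markers of other cells rose as well, 64 of 70 with a median of 3.04, while 15 of 18 stem cell markers fell with a median of −1.67. Their part in the repair gene values was not tested. In replicate 3 of the untreated and replicate 2 of the treated knockout the other-cell markers had the highest mean level of their groups. When these libraries were left out, 18 repair genes were higher and 3 lower (2999 and 2821 of all genes). That fit does not remove the other-cell markers. Their mean log2(FPKM + 1) was still 5.79 and 6.04 in untreated knockout replicates 1 and 2, against 2.72, 2.88 and 2.89 in untreated wild type.

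**Figure D4:**
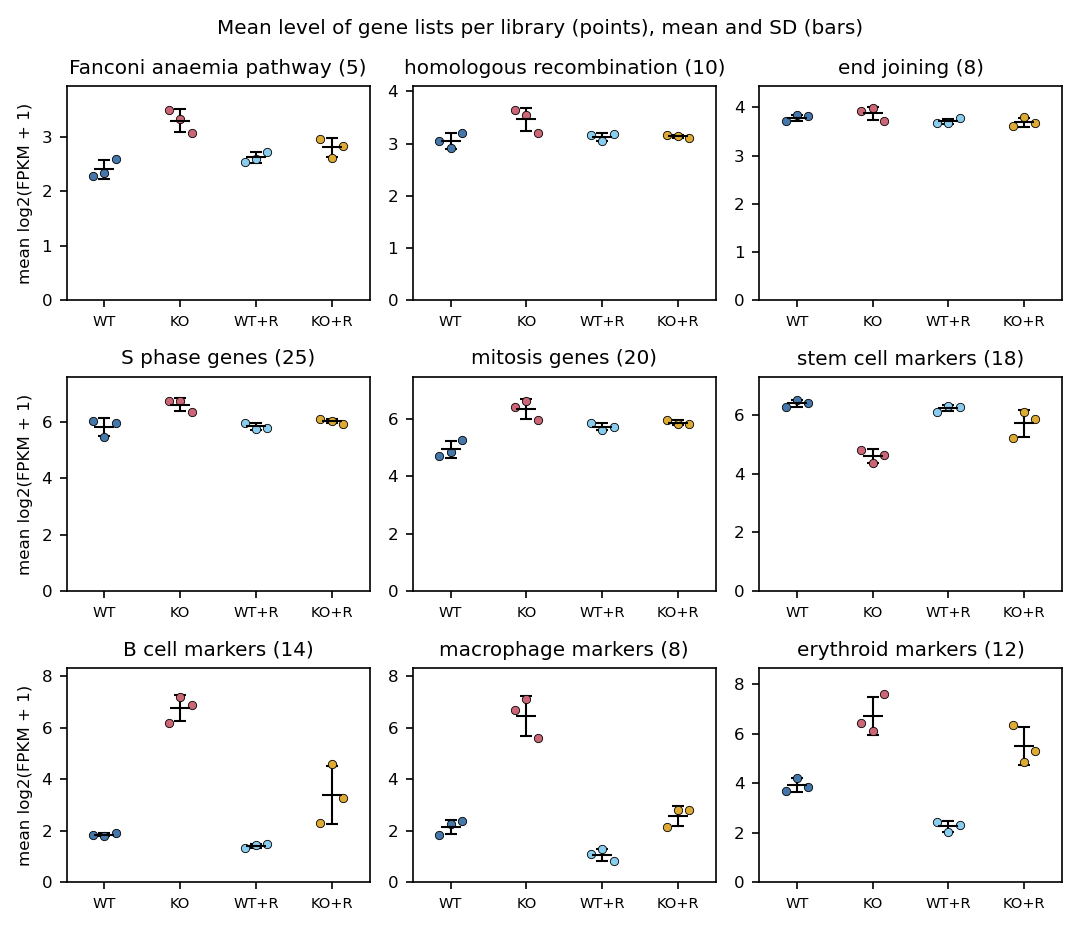
Mean log2(FPKM + 1) of gene lists in each library (points), with the mean and SD of each group as bars (n = 3 libraries; genes per list in the panel titles). Fanconi anaemia genes, S phase genes, mitosis genes and the markers of B cells, macrophages and erythroid cells are higher in every untreated knockout library than in any untreated wild-type library, and the stem cell markers are lower.

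Promoter sequences were available for 29 of the 35 genes (33 windows from 250 bases before to 50 after a start site, RefSeq, GRCm38.p6), and were searched because many members rose together with S phase genes. Letters that match the site of the E2F factors, which switch on replication genes, were spelled TTTCCCGC, TTTGGCGC, TTTGCCGC or TTTCGCGC on either strand. They occurred in 6 of 29 members (20.7%), in 2.61% of all 27025 genes with a window and in 4.75% of the 9650 of these that were tested. Of the 14 members with a window that rose, 5 had them, and of the other 15, 1 did. Among those 5, the calls of Bard1, Chek2 and Msh6 ended under quantile normalization and without some single libraries, as given above. Fanci, Fanca, Lig4 and Rad54l, among the largest rises, had windows without these letters, and Fancd2 had no window. The stretches below show these matches in capitals, and Brca2 is the member among them that did not rise. A match is a description of letters and not a binding site.
Chek2, chr5:110839795-110839874, plus strand: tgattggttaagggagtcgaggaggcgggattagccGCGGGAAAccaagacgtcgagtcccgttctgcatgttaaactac
Xrcc6, chr15:82016287-82016366, plus strand: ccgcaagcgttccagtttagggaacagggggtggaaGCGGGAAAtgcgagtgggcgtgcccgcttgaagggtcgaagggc
Bard1, chr1:71103138-71103217, minus strand: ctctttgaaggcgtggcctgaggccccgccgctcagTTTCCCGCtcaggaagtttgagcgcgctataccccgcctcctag
Rad51c, chr11:87404477-87404506, minus strand: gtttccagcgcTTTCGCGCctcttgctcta
Rad51c, chr11:87404941-87404970, minus strand: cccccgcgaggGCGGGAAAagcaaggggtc
Msh6, chr17:87975054-87975083, plus strand: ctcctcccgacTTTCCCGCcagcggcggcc
Brca2, chr5:150522417-150522496, plus strand: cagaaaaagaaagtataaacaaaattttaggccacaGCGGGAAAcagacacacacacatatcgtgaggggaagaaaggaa

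The first capital lay 152 bases before the start site in Chek2, 46 before it in Xrcc6, 209 before it in Bard1, 168 before it in Brca2, 5 before it in 1 start of Rad51c, 12 after the other and 16 after it in Msh6. The CCAAT box, common in promoters of cell cycle genes (CCAAT on either strand), occurred in 16 of 29 members (55.2%), against 41.1% of all genes and 43.2% of those tested, in 9 of the 14 that rose and 7 of the other 15. The CHR element of mitotic genes (TTTGAA on either strand) occurred in 2 of 29 members (6.9%), against 20.2% of all genes and 14.7% of those tested, and 1 of those is Bard1, whose printed stretch carries it in lower case near its first base. None of these spellings contains another.

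Romiplostim in wild type asks what the agonist adds where thrombopoietin is present. None of the 35 repair genes passed (limma; 2 at an unadjusted p under 0.05), where 1.84% of all genes did (0.866% higher and 0.975% lower), and the median log2 fold change was 0.01 against −0.04 over all genes. Chek2 had the smallest p: its FPKM was 12.9, 17.2 and 15.6 without and 20.8, 20.9 and 22.6 with the agonist (0.47 ± 0.14, 95% interval 0.18 to 0.77, adjusted p = 0.118). Fancd2 came next, at 4.74 ± 1.32 and 7.14 ± 0.676 FPKM (0.53 ± 0.22, adjusted p = 0.328). The groups did not overlap for either gene. They were also apart for Nhej1, Rad51b, Xrcc2 and Xpa, higher with the agonist, and for Xrcc4, lower (20.2 ± 1.72 to 16.3 ± 1.1 FPKM, −0.29 ± 0.16), where 26.8% of all genes did not overlap (10.3% higher and 16.5% lower). The 95% intervals reached from −0.85 to 1.01 over the 35 genes, with a median margin of 0.37 on either side. A change within a gene's own interval may have been missed here. With the replicate number as a block in a fit of the wild-type groups alone, 864 of all genes and again none of the repair genes passed. None of the 136 other repair genes passed (11 at an unadjusted p under 0.05), and Neil3, a glycosylase gene, had the smallest adjusted p with 1.02 ± 0.25 (0.0654). In the same contrast 7 of 20 mitosis genes and none of 25 S phase genes were higher (limma; 1 S phase gene at an unadjusted p under 0.05).

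Romiplostim in knockout tests the agonist in the absence of thrombopoietin. Of the 35 repair genes 8 were lower and 1 was higher with the agonist, 25.7% in all, where 29.6% of all genes were called (10.7% higher and 18.9% lower). The genes that fell were Parp1, Rad51c, Lig4, Fanci, Xrcc6, Rad54l, Fancd2 and Mre11a, and the one that rose was Xpa. The median log2 fold change was −0.29 over the repair genes and −0.09 over all genes. This contrast shares its untreated knockout libraries with the first, so a chance deviation of those libraries enters both with opposite sign. The groups did not overlap for 16 repair genes that were lower and 2 that were higher, where 40.3% of all genes did not overlap (24.7% lower and 15.6% higher).

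Parp1 had 37.8, 39.6 and 36.9 FPKM in the treated knockout against 70.5, 71.9 and 55.9 in the untreated knockout (−0.77 ± 0.12, adjusted p = 0.000743). All treated values lay within 33.6 to 39.8 FPKM, the range of the 6 wild-type libraries. Xpa had 32.2, 44.1 and 39.2 FPKM against 18.5, 19.8 and 25.5 (0.83 ± 0.14, adjusted p = 0.00167), so that it was higher in every treated library. Rad51c had 1.63, 2.33 and 2.21 FPKM against 4.39, 5.35 and 4.17 (−0.88 ± 0.16, adjusted p = 0.00224). Lig4, which met the filter only with the untreated knockout, had 0.683, 1.16 and 0.585 FPKM against 2.52, 4.12 and 1.75 (−1.04 ± 0.21, adjusted p = 0.00409). The groups were apart for these genes. Fanci had 3.79, 3.18 and 3.23 FPKM against 8.76, 6.82 and 4.79 (−0.79 ± 0.18, adjusted p = 0.00817). Xrcc6 had 137, 184 and 134 FPKM against 270, 350 and 195 (−0.81 ± 0.20, adjusted p = 0.012), and without treated knockout replicate 3 its adjusted p was 0.0504. The highest treated library stayed below the lowest untreated one for both genes.

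Rad54l fell by 0.87 ± 0.22, from 43.8 ± 10.2 to 23.3 ± 3.4 FPKM (adjusted p = 0.0134), with adjusted p = 0.0576 without untreated knockout replicate 1 and 0.0567 without treated knockout replicate 3. Fancd2 had 11.8, 6.89 and 8.28 FPKM with the agonist, with the highest treated library level with the lowest untreated one (−0.76 ± 0.22, adjusted p = 0.0246). Mre11a fell by 0.35 ± 0.12, from 24.8 ± 2.9 to 19.2 ± 1.37 FPKM (adjusted p = 0.0404). The calls of Fancd2 and Mre11a ended without any 1 of untreated knockout replicates 1 and 2 and treated knockout replicates 2 and 3, with adjusted p of 0.0881, 0.0852, 0.0698 and 0.0758 for Fancd2 and 0.153, 0.0656, 0.0857 and 0.0846 for Mre11a. Brca1 (−0.57, adjusted p = 0.0516), Fancc (−0.34, 0.0536) and Nbn (−0.39, 0.0581) missed the threshold. Xrcc4, Trp53bp1 and Atm, lower in the untreated knockout, had positive values that did not pass (0.14, 0.23 and 0.24). Without untreated knockout replicate 3 the count of changed repair genes was 14 (3374 of all genes), and without treated knockout replicate 3 it was 5 (2368).

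**Figure D5:**
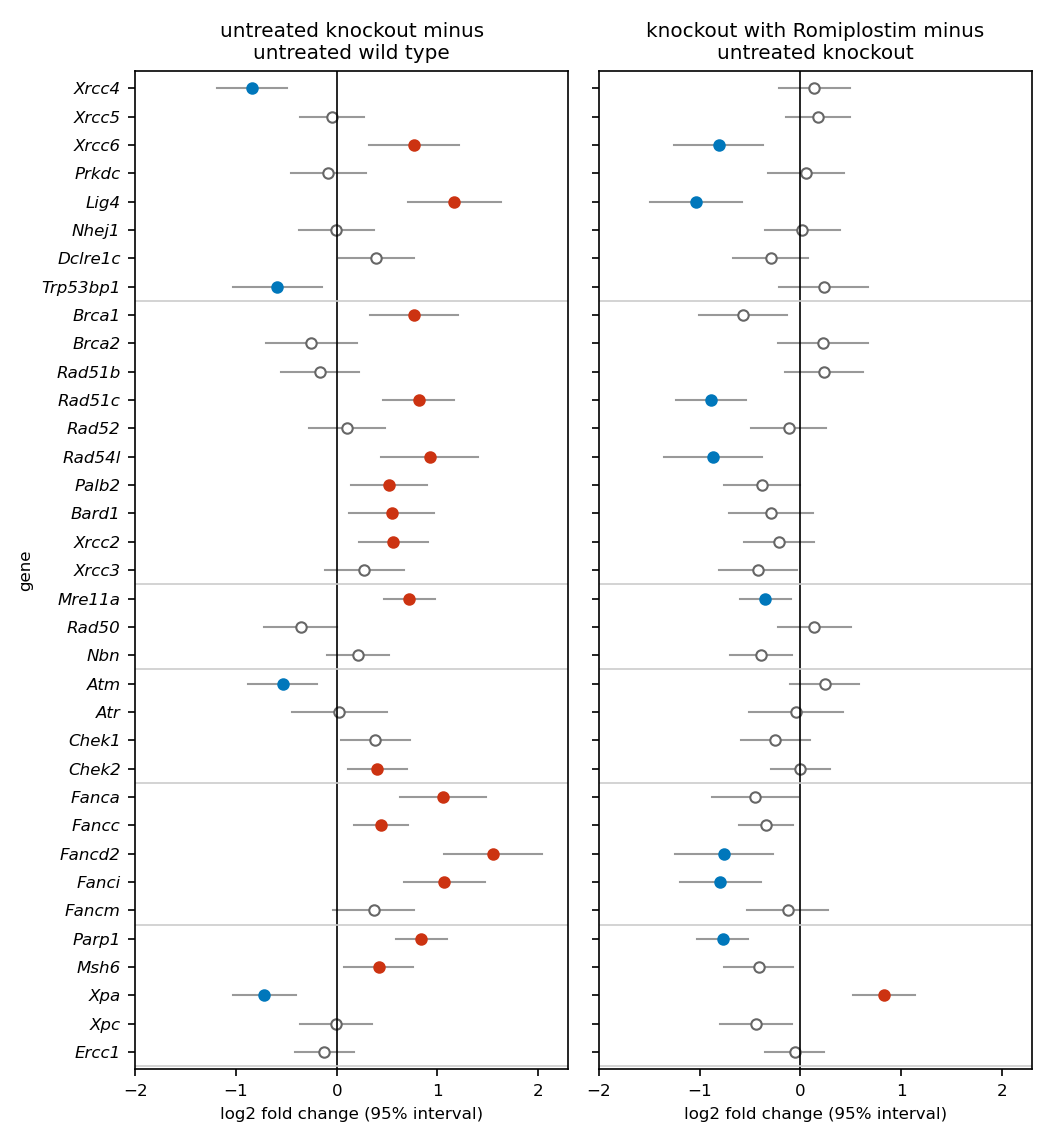
Log2 fold change of each repair gene with its 95% interval for untreated knockout against untreated wild type (left) and for Romiplostim against no treatment in knockout (right), on the log2(FPKM + 1) scale. Filled points passed an adjusted p of 0.05, red for higher and blue for lower, which gives 16 red and 4 blue on the left and 1 red and 8 blue on the right.

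Sex could not be told apart from treatment in the knockout. The mean FPKM of 4 Y-linked genes was 14.7, 24.9 and 11.3 in the untreated knockout and 0.0273, 0.0389 and 0.00537 in the treated knockout, while untreated wild type had 22.5, 0.137 and 23.2 and treated wild type 0.0221, 18.5 and 21.2. With the Y-linked level as a covariate, 2 of the 9 repair genes passed, Parp1 (−0.71, adjusted p = 0.0291) and Xpa (0.76, adjusted p = 0.046). The first contrast, untreated knockout against untreated wild type, kept 17 of its 20 under that covariate.

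Scaling moved this contrast. Under quantile normalization the median of all genes went from −0.09 to 0.07, the split of all calls from 1377 higher and 2420 lower to 2467 and 1773, and that of the repair genes from 1 and 8 to 2 and 6. Scaling by the median of ratios gave 1815 higher and 2004 lower over all genes and 1 and 6 among the repair genes. Fancd2 and Mre11a did not pass under either scaling (adjusted p = 0.0563 and 0.118 for Fancd2, 0.159 and 0.412 for Mre11a).

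Of the 136 other repair genes 26 were lower (19.1%) and 7 higher (5.15%), with a median of −0.18. The 24.3% called were below the 29.6% of all genes, and the share lower was near the 18.9% of all genes. By list the share lower was 23.8% in damage signalling, 21.4% in end joining, 26.7% in homologous recombination and 20% in the Fanconi pathway. Rad9a (−0.84 ± 0.13, adjusted p = 0.00114) and Cdc25a, a phosphatase that the checkpoint destroys (−0.64), had the smallest p in damage signalling, where 5 of 21 were lower and none was higher. In end joining 3 of 14 were lower and 1 higher, with the end-cleaning enzyme gene Tdp1 at −0.68. In homologous recombination 8 of 30 were lower and 2 higher, with the helicase gene Helq at −0.67 and Gen1 at −0.72. The 15 other Fanconi genes had 3 lower, with Fancg at −0.59, and 1 higher, Cenpx, at 0.72. Tdg (−0.69) and Parg (−0.57), which removes the chains that Parp1 builds, were lower in base excision. Mgmt rose by 0.67 ± 0.13 (adjusted p = 0.00279), to 33.7 ± 2.49 FPKM. In the same contrast 14 of 25 S phase and 8 of 20 mitosis genes were lower, 51 of 70 other-cell markers were lower and 1 higher, and 13 of 18 stem cell markers were higher. Their part in the repair gene values was not tested.

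Knockout and wild type under Romiplostim were compared to see what differences the treated groups kept. None of the 35 repair genes passed (limma; 3 at an unadjusted p under 0.05), where 1.37% of all genes did (0.632% higher and 0.741% lower), and the median was 0.01 against −0.07 over all genes. The smallest p belonged to Xpc, with 12.8, 14.7 and 14.7 FPKM in treated wild type and 7.41, 12.6 and 11.1 in treated knockout (−0.43 ± 0.16, adjusted p = 0.181). Xrcc4 was at 16.3 ± 1.1 and 12.2 ± 3.2 FPKM (−0.41 ± 0.16, adjusted p = 0.193), and Mre11a at 15.7 ± 0.547 and 19.2 ± 1.37 (0.27 ± 0.12, adjusted p = 0.22). Groups did not overlap for Xpc, Mre11a, Lig4 and Chek1, while 25.1% of all genes did not overlap (9.94% higher and 15.2% lower). The 95% intervals ran from −0.79 to 0.82 over the 35 genes, and a change within a gene's own interval may have been missed. The FPKM ratio of Xrcc4 to Lig4 was 33.2 ± 1.8 in treated wild type and 15.7 ± 3.08 in treated knockout, without overlap, and that of Rad50 to Mre11a was 2.47 ± 0.0655 and 2.09 ± 0.14. Without treated knockout replicate 2 the count was 3 of 35, all lower, where 1559 of the 12823 genes were called, 1235 of them lower. None of the 136 other repair genes passed (20 at an unadjusted p under 0.05), and of the other-cell markers 16 of 70 were still higher.

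The interaction asks whether the agonist acted differently in the 2 genotypes, as the knockout effect minus the wild-type effect. It was below 0 for 5 of the 35 repair genes and above 0 for none that passed, where 15.6% of all genes passed (5.53% higher and 10% lower). These were Parp1 (−0.84 ± 0.16, adjusted p = 0.00762), Rad51c (−0.98 ± 0.23, adjusted p = 0.0157), Fancd2 (−1.28 ± 0.31, adjusted p = 0.0201), Fanci (−0.99 ± 0.26, adjusted p = 0.0267) and Rad54l (−1.02 ± 0.31, adjusted p = 0.0476). For Parp1 the 2 effects were 0.07 in wild type and −0.77 in knockout, and for Fancd2 0.53 and −0.76. The median over the repair genes was −0.29 and over all genes −0.05. The call of Parp1 and that of Rad51c held without any 1 library, that of Fancd2 ended without treated wild-type replicate 3 (adjusted p = 0.0544). That of Fanci ended without any 1 of 8 libraries (0.0505 to 0.0721), and that of Rad54l without any 1 of 9 of the 12 (0.0561 to 0.11). With the Y-linked covariate none of the 5 passed (adjusted p from 0.0607 for Parp1 to 0.221 for Rad54l). Under quantile normalization the median of all genes went from −0.05 to 0.08 and all calls from 709 higher and 1287 lower to 1434 and 1151, and 3 repair genes were higher and 3 lower. Fanci and Rad54l did not pass there (adjusted p = 0.0552 and 0.0709). Of the 136 other repair genes 9 were lower and 2 higher, and of the mitosis genes 15 of 20 were lower.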

How the data were processed

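RNA was measured in 12 libraries of sorted stem cells, 3 in each of 4 groups. The deposited table gives an FPKM value, computed by the authors, for each gene in each library. Per the submitters' processing notes, TopHat2, Cufflinks 2.2.1 and the build mm10 were used; their roles are not given. The cDNA came from the SMARTer Ultra Low kit, per the labels' protocols, and nothing states that strand was used in counting. Of 35275 identifiers, 34490 matched a symbol in GENCODE M21 and 785 did not.

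Values were analysed as log2(FPKM + 1). The test covered the 12823 genes that reached 1 FPKM in 3 or more libraries. A linear model of the 4 groups, with all 12 libraries, was fitted in R 4.3.3 with limma 3.58.1 and a mean-variance trend. Its two-sided p-values were adjusted (Benjamini-Hochberg) over all genes in each of 5 contrasts, with a threshold of 0.05, and the code was tested on simulated data. With 3 libraries a side, an exact permutation test gives p = 0.1 at best, so none was used. Depth was recovered from the steps of low FPKM values and GENCODE exon lengths. Of the values under 50 fragments, 41.3% to 51.4% per library were whole within 0.05, so depth is an estimate, no count test was run, and the level of 3 fragments covers counting error only. Figures and tables used Python with pandas 2.3.3, numpy 2.4.6 and matplotlib 3.10.9.

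The rule for named genes gave values by library to the called members with the 6 smallest p per contrast, named up to 2 other repair genes per list by smallest p, and up to 3 per cell cycle or marker list in listed order. The members and lists were chosen with earlier results of these data known. Alternatives changed the pseudocount, filter, scaling, trend, libraries in the fit, library weights and fold criterion, added a replicate block or a Y-linked covariate, or left out libraries. The replicate numbers are not stated to mark a litter, batch or day. Deviations from the group means correlated over 0.1 in all 3 same-number pairs of untreated and treated wild type (0.12 to 0.40), and in no other combination of groups did all 3. By that cutoff the numbers were taken to pair the wild-type libraries, whose other pairs had −0.36 to 0.12. In untreated and treated knockout the same-number pairs had 0.06 to 0.19 and the other pairs −0.21 to 0.01.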

Additional observations from a re-analysis of the deposited data

Results flagged for a closer look

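The effect of Romiplostim differed between the genotypes for 5 repair genes by the interaction term of the limma fit. These were 14.3% of the repair genes, where 15.6% of all genes passed. The call was lost in 14 of 23 alternatives for Rad54l and 12 of 22 for Fanci. It was lost in 2 of 23 for Fancd2, 2 of 22 for Rad51c and 2 of 23 for Parp1. As the knockout effect minus the wild-type effect on the log2(FPKM + 1) scale, the difference was −1.28 for Fancd2, −1.02 for Rad54l, −0.99 for Fanci, −0.98 for Rad51c and −0.84 for Parp1. In wild type the effects were 0.53, 0.16, 0.19, 0.10 and 0.07 in that order, and none passed. In knockout they were −0.76, −0.87, −0.79, −0.88 and −0.77, and each passed. The treated knockout libraries had almost no Y-linked RNA and the untreated ones had it throughout, while each wild-type group held both kinds. With that level as a covariate none of the 5 differences passed (limma adjusted p = 0.139, 0.221, 0.11, 0.114 and 0.0607).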

How the results depend on the processing

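No called repair gene changed sign under any alternative, while quantile normalization turned the split and the median of all genes for Romiplostim in knockout and for the interaction, as given above. Every alternative listed was run, with no separate value for the interaction when only the groups compared were fitted. Counts below are of the 35 repair genes, then of all genes.

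In untreated knockout against untreated wild type the counts were 20 and 5779. They were 4 and 2252 at a change of at least 2-fold, and 13 to 20 and 4822 to 5611 without any 1 library. Fanca and Fancd2 passed under every alternative, as did Fanci and Lig4, which the filter of 5 FPKM left untested. Lig4 met the main filter only with the untreated knockout.

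For Romiplostim in wild type the counts were 0 and 236. Array weights, whose fit stopped before convergence, gave 4 and 2488. All genes gave 122 with a filter of 5 FPKM, 628 in a fit of only these groups, 148 at 2-fold, 438 without the 2 knockout libraries highest in other-cell markers, and 65 to 156 without any 1 library, with 0 repair genes.

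For Romiplostim in knockout the counts were 9 and 3797. They were 5 and 2021 in a fit of only these groups, 19 and 7138 with array weights, 1 and 1233 at 2-fold, and 2 and 1059 with the Y-linked covariate. Without any 1 library they were 5 to 14 and 2368 to 4308.

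For knockout against wild type under Romiplostim the counts were 0 and 176. They were 7 and 4327 with array weights and 3 and 1712 without the 2 knockout libraries. All genes gave 326 with a pseudocount of 0.1, 57 without the filter, 270 under quantile normalization, 57 in a fit of only these groups and 28 with the covariate. Without any 1 library the counts were 0 to 3 and 31 to 1559.

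For the interaction the counts were 5 and 1996. They were 17 and 6220 with array weights, 2 and 1170 at 2-fold, and 0 and 487 with the covariate. Repair genes numbered 3 without the filter, 3 with a filter of 5 FPKM, which left 28 of them tested, and 9 without the 2 knockout libraries. Without any 1 library the counts were 2 to 8 and 1088 to 2687. The cause of these differences was not tested, beyond the fewer genes or libraries that some alternatives hold.

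With the replicate number as a block, the counts in the same order were 18, 0, 10, 0 and 6 repair genes and 5788, 199, 3787, 174 and 1922 of all genes. By the cutoff of 0.1 the replicate numbers were taken to pair the wild-type libraries only. The same-number pairs of untreated and treated knockout also lay above the other pairs of those groups. A fit of the wild-type groups alone with the block, chosen after seeing the data, gave 0 and 864, against 628 of all genes without it. Over all 18 same-number pairs the correlation was between −0.19 and 0.40, with 6 above 0.1.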
